A study of Mus musculus with 13 samples.

Results

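The genes described here are 8 genes of retinal bipolar cells: the transcription factors Lhx4, Irx5, Irx6 and Fezf2, and the signalling proteins Prkca, Cabp5, Pcp2 and Trpm1. They were matched by name in the authors' deposited table of control against Ikzf1, and all 8 were found among its 35734 genes. All 8 also passed the filter on low counts, which left 15642 genes to test, although Pcp2 and Trpm1 did so with few reads. RNA-seq was made from CD1 mouse retinas taken at postnatal day 0, dissociated, transfected and kept in culture for 9 h, after which GFP-positive cells were sorted. The control group was transfected with GFP and the other group with Ikzf1-IRES-GFP, a construct in which Ikzf1 and GFP are translated from 1 transcript. Each group had 4 libraries, described in the labels as biological replicates, of 400000 sorted cells in the control group and 300000 in the Ikzf1 group. The labels call the cells retinal progenitor cells, and both groups were sorted for GFP. The promoter of the constructs in these libraries and the number of animals behind a replicate were not given in the sources used here. The product of Ikzf1 is Ikaros, a zinc finger protein that binds DNA, and the question was how its gain alters gene expression in late retinal progenitors.

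Bipolar cells are the interneurons that carry signals from the rod and cone photoreceptors to the amacrine and ganglion cells of the inner retina. They are among the last cell types to be made, and in the mouse most of them are born after birth, so a retina of the day of birth holds their progenitors and precursors rather than mature cells. ON bipolar cells detect glutamate through the receptor Grm6, which acts through the G protein Go on the cation channel Trpm1, whereas OFF bipolar cells use ionotropic glutamate receptors. The homeodomain factor Otx2 acts broadly in the lineage, and other factors mark its subtypes.

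Of the 8 genes, 4 fell in the Ikzf1 libraries (Lhx4, Irx5, Irx6 and Cabp5), 2 rose (Prkca and Fezf2), and Pcp2 and Trpm1 did not pass the test. The test was edgeR's quasi-likelihood test on counts summed to genes, called at an adjusted p under 0.05 (Benjamini-Hochberg, over every gene tested). Of the genes tested, 59.1% passed it, with 29.3% higher and 29.8% lower, so 6 of 8 is near the background and says nothing particular about these genes. The even split of all genes depends on the scaling, with 5400 higher and 4033 lower when library totals were taken without Ikzf1, and 4667 higher and 3359 lower with limma on log2 TPM. The median log2 fold change of the 8 was -0.45, against 0.00 over all tested genes. The median over all genes depends on the scaling too. It was 0.06 with library totals taken without Ikzf1 and 0.06 with limma on log2 TPM. The values of the 4 control and the 4 Ikzf1 libraries did not overlap in 5 of the 8 genes, 1 of them higher and 4 lower. The same held for 53.1% of all tested genes, 26.5% higher and 26.7% lower. The summed level of the 8 genes was 93.6 to 105 CPM (read counts scaled to a common library total, corrected by TMM) in the controls and 89.3 to 101 CPM in the Ikzf1 libraries, and these ranges overlapped. Fewer cells that express a gene and less RNA of it per cell cannot be told apart in these sorted populations.

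**Figure D1:**
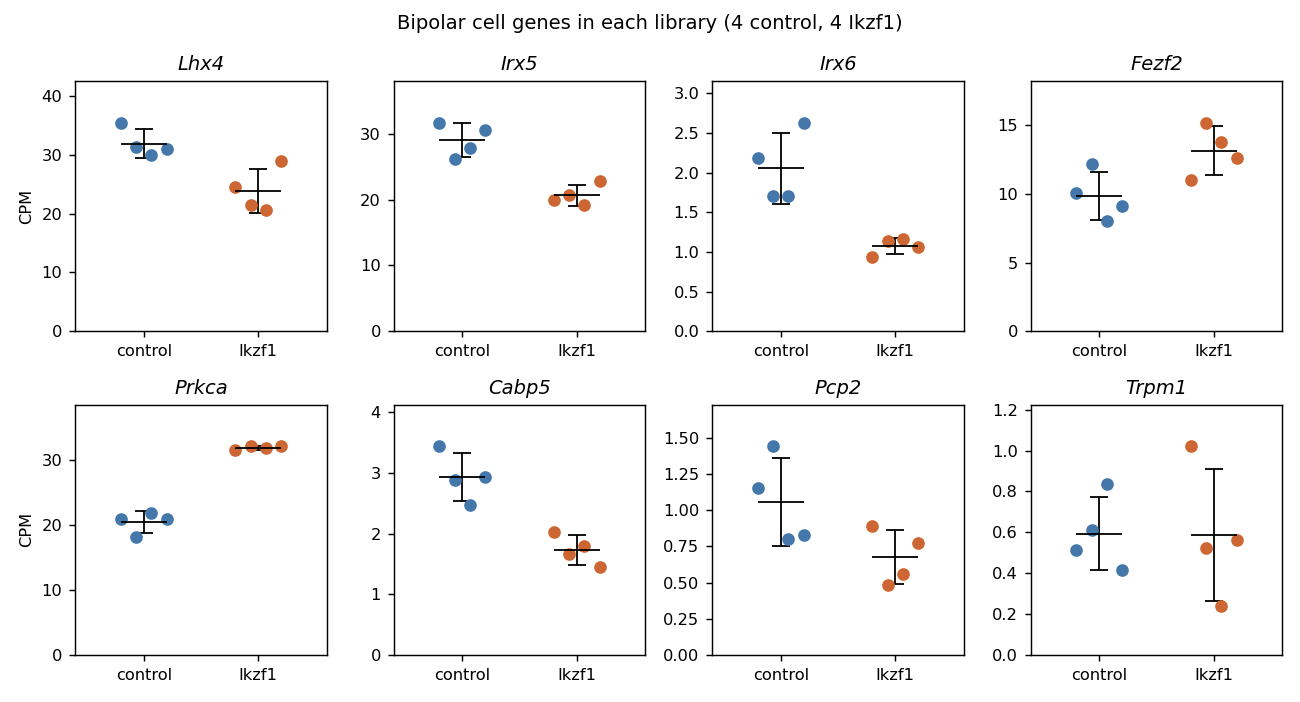
Level of each of the 8 bipolar cell genes (CPM, linear axis from 0) in the 4 control and the 4 Ikzf1 libraries. Points are libraries in the order of their replicate numbers, and the horizontal line and bars are the mean and SD of the group. The groups overlap only for Fezf2, Pcp2 and Trpm1.

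Before these genes, the misexpressed gene was measured as a check of the labels. Ikzf1 took 0.00723 to 0.0091% of the reads in the control libraries and 15.9 to 17.2% in the Ikzf1 libraries, so its log2 fold change was 11.25 (SE 0.09, n = 4 each, adjusted p = 2.99e-34 by edgeR). The libraries held 21.4 to 30.5 M estimated read pairs, and the first principal component, with 65.3% of the variance, separated the groups. Because Ikzf1 itself takes so many reads, levels in TPM (transcript abundance per length) are given below after the deposited values were rescaled to the same sum without Ikzf1. CPM allows a gene to be compared between libraries, and TPM, which is per length, allows genes to be compared with each other.

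The signalling genes that passed moved in opposite directions, as Prkca rose and Cabp5 fell, and the sequences before their starts are shown for the contrast in their composition. Each is the part of RefSeq's promoter window (GRCm38.p6) that lies upstream of the deposited gene model, 5′ to 3′ on the gene's strand. For Cabp5 this is chr7:13397905-13398131 on the plus strand, and for Prkca it is chr11:108343929-108344138 on the minus strand. Capitals mark TAATCC, the letters bound by the homeodomain factors Otx2 and Crx. GGGAA, the core bound by Ikaros, was searched as well. Both were searched on either strand.
Cabp5: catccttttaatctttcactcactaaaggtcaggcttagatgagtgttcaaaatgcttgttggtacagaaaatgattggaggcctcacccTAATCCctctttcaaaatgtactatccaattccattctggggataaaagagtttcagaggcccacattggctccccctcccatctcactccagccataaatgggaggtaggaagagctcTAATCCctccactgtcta
Prkca: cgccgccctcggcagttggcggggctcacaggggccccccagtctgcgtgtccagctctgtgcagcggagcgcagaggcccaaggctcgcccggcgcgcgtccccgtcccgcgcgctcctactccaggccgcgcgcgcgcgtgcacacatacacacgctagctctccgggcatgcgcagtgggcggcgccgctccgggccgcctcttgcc
The Cabp5 sequence holds TAATCC at 2 places, which 6.25% of 32851 RefSeq promoters of 250 bases hold at least once, and it holds no GGGAA. The Prkca sequence holds neither. Over the full 250 bases the GC content was 44% for Cabp5 and 76.8% for Prkca, against a median of 52.4% over all promoters. The Cabp5 window had 0 CpG and the Prkca window 39, more than 98.4% of all promoters, whose median was 6. Of the other genes, the first Trpm1 window had 1 TAATCC and the second, inside the gene, had 0. The first and second Pcp2 windows, which overlap, had 2 GGGAA each, a core that 56.2% of all promoters hold. The third Pcp2 window had 0 and the last had 2, both inside the gene. The windows of Lhx4 (2 GGGAA) and Fezf2 (4 GGGAA) end 9657 and 2324 bases inside the deposited gene models. The Lhx4 window had 66.0% GC and 14 CpG, and the Fezf2 window 61.2% GC and 14 CpG. These windows were thus alike in composition, although Lhx4 fell and Fezf2 rose. A link between composition and direction was not tested. A match is a string of letters and not a measured binding site.

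Among the transcription factors, Lhx4, Irx5 and Irx6 fell and Fezf2 rose. Lhx4 (ENSMUSG00000026468, GRCm38 chromosome 1, 155698031 to 155751684, minus strand) is a LIM homeodomain factor of cone bipolar cells and of developing cones. It measured 35.5, 31.3, 30.0 and 31.0 CPM in control replicates 1 to 4 and 24.5, 21.5, 20.7 and 29.0 CPM in Ikzf1 replicates 1 to 4. All Ikzf1 libraries were below all controls, with Ikzf1 replicate 4 just under the lowest of them. The mean was 31.9 ± 2.43 CPM for the controls and 23.9 ± 3.77 CPM for Ikzf1 (SD, n = 4 each), and the log2 fold change was -0.41 (SE 0.09, 95% interval -0.60 to -0.23, edgeR adjusted p = 0.000513). With limma on log2(TPM + 0.1) the log2 fold change of Lhx4 was -0.33 and no longer passed (adjusted p = 0.0743), the highest of 1.85e-06 to 0.0743 over 15 alternatives.

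Irx5 and Irx6 are Iroquois homeodomain factors of OFF cone bipolar cells, and they are neighbours in 1 gene cluster. Irx5 (ENSMUSG00000031737, chromosome 8, 92357625 to 92376286, plus strand) measured 31.7, 26.2, 27.8 and 30.6 CPM in the controls and 19.9, 20.7, 19.2 and 22.9 CPM in the Ikzf1 libraries. All 4 Ikzf1 libraries were below all 4 controls. Irx5 fell from a control mean of 29.1 ± 2.50 CPM to 20.7 ± 1.58 (SD, n = 4 each), and the log2 fold change was -0.49 (SE 0.07, edgeR adjusted p = 1.96e-06). Irx6 (ENSMUSG00000031738, chromosome 8, 92674288 to 92680956, plus strand) was much rarer, with 2.18, 1.70, 1.71 and 2.63 CPM in the controls and 0.931, 1.14, 1.16 and 1.06 CPM in the Ikzf1 libraries. Again no Ikzf1 library reached a control. These levels rest on 22 to 76 reads a library. Irx6 fell from a control mean of 2.05 ± 0.446 CPM to 1.07 ± 0.102 (SD, n = 4 each), and the log2 fold change was -0.94 (SE 0.25, 95% interval -1.46 to -0.42, edgeR adjusted p = 0.00204).

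The third gene of this cluster, Irx3, lies 556 kb from Irx5 on the side away from Irx6, and the table lists no gene between Irx3 and Irx5 or in the 298 kb between Irx5 and Irx6. Irx3, which is in the list of bipolar factors, fell from a control mean of 4.11 ± 0.522 CPM to 1.67 ± 0.431 (SD, n = 4 each), and the log2 fold change was -1.29 (adjusted p = 1.94e-06 by edgeR). All 3 genes of the chromosome 8 cluster thus fell, where 29.8% of all tested genes fell. Whether they changed as a cluster was not tested. Of the other Iroquois cluster, on chromosome 13, Irx2 and Irx4 were not tested because of low counts. Irx1, chosen for mention after its values were seen, rose from 0.312 ± 0.219 to 3.23 ± 0.599 CPM (SD, n = 4 each), which is 3.41 on the log2 scale (adjusted p = 2.21e-08 by edgeR). Its control level was below the 0.594 CPM of Trpm1, so the size of the rise rests on few control reads.

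Fezf2 (ENSMUSG00000021743, chromosome 14, 12342094 to 12348189, minus strand) is a zinc finger factor best known from projection neurons of the cortex, and it is present in some cone bipolar cells. It measured 10.1, 12.2, 8.02 and 9.14 CPM in the controls and 11.0, 15.2, 13.8 and 12.6 CPM in the Ikzf1 libraries. The groups overlapped, since control replicate 2 stood above Ikzf1 replicate 1. Fezf2 rose from a control mean of 9.86 ± 1.76 CPM to 13.2 ± 1.80 (SD, n = 4 each), and the log2 fold change was 0.42 (SE 0.12, 95% interval 0.18 to 0.66, edgeR adjusted p = 0.00343). It was the only factor of the 4 that rose.

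Of the signalling genes, Prkca changed with the smallest adjusted p of the 8 in the edgeR test on counts not divided by length. When edgeR took transcript length into account, Irx5 had a smaller adjusted p than Prkca (0.000295 against 0.00945). The same held with limma on log2 TPM (0.00203 against 0.0119). Prkca (ENSMUSG00000050965, chromosome 11, 107933387 to 108343928, minus strand) encodes protein kinase C alpha, the usual marker of rod bipolar cells, which is also made by many other cell types. It measured 20.9, 18.1, 21.9 and 21.0 CPM in the controls and 31.5, 32.1, 31.9 and 32.1 CPM in the Ikzf1 libraries. The 4 Ikzf1 libraries were nearly alike and all far above the controls. Prkca rose from a control mean of 20.5 ± 1.64 CPM to 31.9 ± 0.276 (SD, n = 4 each), and the log2 fold change was 0.64 (SE 0.07, 95% interval 0.50 to 0.78, edgeR adjusted p = 4.01e-09). Its transcript of 8409 bases held 85.9% of its reads.

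Cabp5 (ENSMUSG00000005649, chromosome 7, 13398132 to 13408887, plus strand) encodes a calcium-binding protein of the calmodulin family, found in rod bipolar cells and some cone bipolar cells. It measured 3.44, 2.88, 2.47 and 2.94 CPM in the controls and 2.03, 1.66, 1.79 and 1.45 CPM in the Ikzf1 libraries. The groups did not overlap, at 38 to 87 reads a library. Cabp5 fell from a control mean of 2.93 ± 0.400 CPM to 1.73 ± 0.245 (SD, n = 4 each), and the log2 fold change was -0.76 (SE 0.20, 95% interval -1.17 to -0.35, edgeR adjusted p = 0.00184). The rod bipolar marker Prkca and the bipolar marker Cabp5 thus changed in opposite directions in the same libraries.

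Pcp2 (ENSMUSG00000004630, chromosome 8, 3623371 to 3625545, minus strand) encodes a modulator of Go signalling that is made by bipolar cells and by Purkinje cells of the cerebellum. It measured 1.15, 1.44, 0.798 and 0.831 CPM in the controls and 0.889, 0.481, 0.558 and 0.776 CPM in the Ikzf1 libraries, from 11 to 33 reads. The groups overlapped, and the log2 fold change of -0.62 did not pass (SE 0.33, 95% interval -1.29 to 0.05, edgeR adjusted p = 0.104). The interval includes both no change and a fall larger than the one measured for any of the 8 genes, so a difference was not detectable at this depth. The whole gene lies within Pet100 on the opposite strand, and the use of strand in counting was not given, so reads of the pair may not be told apart. Pet100 measured 7.24 ± 0.348 CPM for the controls and 7.86 ± 1.28 CPM for Ikzf1 (SD, n = 4 each, edgeR adjusted p = 0.415). A Pcp2 transcript of 1606 bases held 22.7 to 46.7% of the Pcp2 reads in the controls and 0 to 18.0% in the Ikzf1 libraries, which is at most 10.1 reads in any library and was not tested.

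Trpm1 (ENSMUSG00000030523, chromosome 7, 64153835 to 64269775, plus strand), the transduction channel of ON bipolar cells, was too low to measure. It measured 0.514, 0.610, 0.834 and 0.415 CPM in the controls and 1.02, 0.525, 0.239 and 0.564 CPM in the Ikzf1 libraries, from 6 to 24 reads. The highest and the lowest value were both in the Ikzf1 group. The reads were spread over 11 annotated transcripts, and no transcript had reads in all 8 libraries. The log2 fold change was -0.02 (SE 0.40, 95% interval -0.85 to 0.80, edgeR adjusted p = 0.963), and its sign changed when control replicate 3 (0.19), Ikzf1 replicate 2 (0.02) or Ikzf1 replicate 3 (0.24) was left out.

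**Figure D2:**
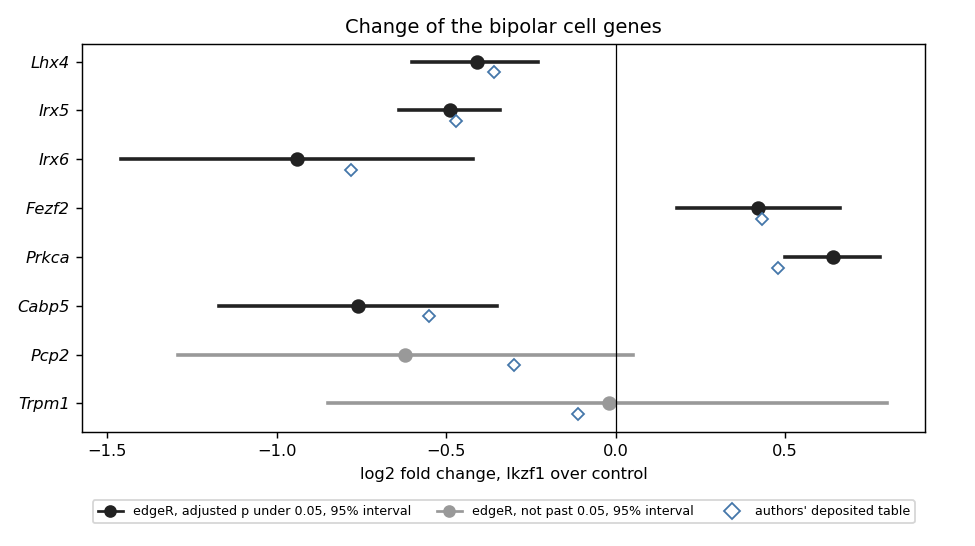
Log2 fold change of each gene, Ikzf1 over control, with its 95% interval from edgeR (circles and lines) and the value of the authors' deposited table (diamonds). Intervals that clear 0 belong to Lhx4, Irx5, Irx6 and Cabp5 below it and to Fezf2 and Prkca above it, and the intervals of Pcp2 and Trpm1 cross it.

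The authors' deposited table had the same 6 genes past an adjusted p of 0.05, each in the same direction. It comes from the same 8 libraries, so the 2 sets of values are not independent. The share of all genes past 0.05 in that table was not counted, and by edgeR it was 59.1% of tested genes. Its log2 fold changes were 0.48 for Prkca, 0.43 for Fezf2, -0.36 for Lhx4, -0.47 for Irx5, -0.55 for Cabp5 and -0.78 for Irx6. In the authors' deposited table Cabp5 was nearest to the threshold, with an adjusted p of 0.043, and Irx5 farthest from it, with 1.6e-06. The plot of fold changes shows the 2 sets of values side by side.

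Per length, the 8 genes covered a wide range of levels. Irx5 was the highest in the controls at 24.0 TPM, above 54.6% of tested genes, and was followed by Lhx4 at 12, Fezf2 at 9.18, Prkca at 8.47, Pcp2 at 4.42, Cabp5 at 3.51, Irx6 at 1.24 and Trpm1 at 0.556 TPM. Trpm1 was above only 5.82% of tested genes and Irx6 above 12.3%. Among neighbours in this order, the ranges of the 4 controls were separate for Irx5 and Lhx4, for Prkca and Pcp2, and for Cabp5 and Irx6, and they overlapped for the other pairs. On this scale the control and Ikzf1 libraries were separate only for Irx5, at 21.7 to 25.9 against 16.6 to 20.1 TPM, and for Irx6, at 0.991 to 1.56 against 0.558 to 0.818 TPM. Prkca, Cabp5 and Lhx4, which were separate in CPM, overlapped in TPM. For Prkca it was control replicate 4, at 10.6 TPM, that stood above Ikzf1 replicate 1, at 9.56 TPM, although these libraries were far apart in CPM. A Prkca transcript of 678 bases had at most 33.9 reads in any control library. It made 1.98 of the mean 8.47 TPM of the controls, so the TPM of Prkca rests partly on few reads. Its part in the overlap was not tested.

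**Figure D3:**
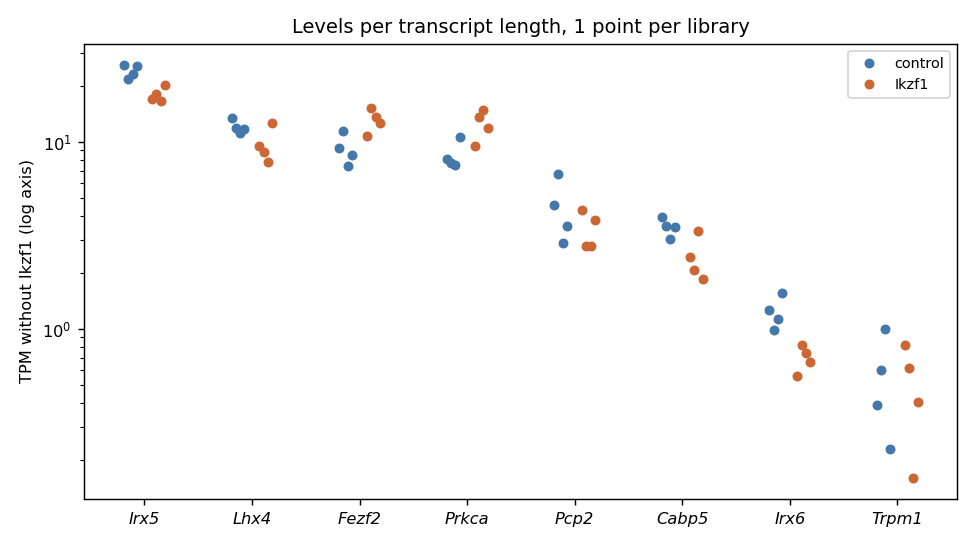
Level per length of the 8 genes (TPM rescaled without Ikzf1, log axis), 1 point per library, ordered by the mean of the controls. Irx5 is highest at 16.6 to 25.9 TPM and Trpm1 lowest at 0.159 to 1.00 TPM over all 8 libraries.

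Of 17 other transcription factors of the bipolar lineage, 13 were tested, of which 8 fell and 2 rose, where 29.8% of all tested genes fell and 29.3% rose. Their median log2 fold change was -0.41. No test of the lists as such was made, here or below. Some calls differ from the authors' deposited table, in genes named after their values were seen. St18, which fell here, had a log2 fold change of 0.07 there (adjusted p = 0.695), Zfhx4, which also fell here, had -0.15 (adjusted p = 0.503), and Nfia, which did not pass here, had -0.27 (adjusted p = 0.0345), all in the authors' deposited table. The largest fall was that of Irx3, given above. Otx2, needed for photoreceptor and bipolar fates, fell from a control mean of 315 ± 19.6 CPM to 236 ± 13.4 (SD, n = 4 each), and the log2 fold change was -0.41 (adjusted p = 2.76e-08 by edgeR).

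The factors that rose were Bhlhe22 and Isl1. Bhlhe22, a factor of amacrine and OFF cone bipolar cells, rose from a control mean of 51.2 ± 2.83 CPM to 87.4 ± 2.81 (SD, n = 4 each), and the log2 fold change was 0.77 (adjusted p = 1.78e-13 by edgeR). Isl1, a LIM homeodomain factor of ON bipolar, ganglion and some amacrine cells, rose from a control mean of 9.52 ± 1.25 CPM to 12.5 ± 1.62 (SD, n = 4 each), and the log2 fold change was 0.39 (adjusted p = 0.0029 by edgeR). The 4 listed factors that were left out of the test were near 0, unlike Bhlhe22 and Isl1. Mean normalised counts over all 8 libraries in the authors' deposited table were 0.663 for Vsx1, 1.27 for Bhlhe23, 0.621 for Irx4 and 0.740 for Sebox, and none of these was tested.

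**Figure D4:**
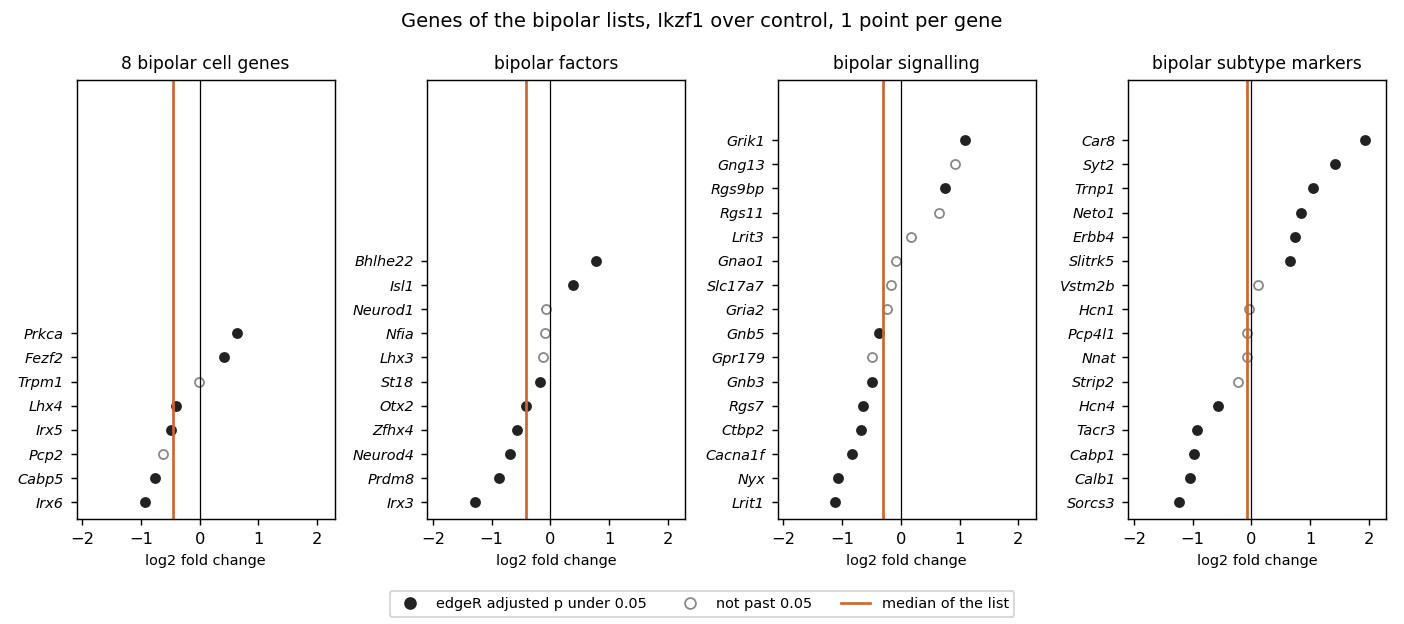
Log2 fold change, Ikzf1 over control, of the 8 bipolar cell genes and of the genes drawn from the 3 lists of other bipolar genes. Filled points passed the edgeR test at 0.05, and the coloured line is the median over all tested genes of each list, at -0.45, -0.41, -0.31 and -0.08 from left to right.

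Among genes of bipolar signalling and synapses, the receptor that defines ON bipolar cells was near 0. Of 17 listed, 16 were tested, of which 7 fell and 2 rose, where 29.8% of all tested genes fell and 29.3% rose. Their median log2 fold change was -0.31. Grm6, the glutamate receptor of ON bipolar cells, had a mean of 0.316 normalised counts in the authors' deposited table and was not tested. Lrit1, a leucine-rich repeat protein of photoreceptor terminals, fell from a control mean of 12.6 ± 1.86 CPM to 5.76 ± 0.766 (SD, n = 4 each), and the log2 fold change was -1.13 (adjusted p = 3.66e-09 by edgeR). Nyx, the nyctalopin of ON bipolar dendrites, fell from a control mean of 0.759 ± 0.212 CPM to 0.359 ± 0.135 (SD, n = 4 each), and the log2 fold change was -1.07 (adjusted p = 0.0197 by edgeR), but had an adjusted p of 0.0737 in the authors' deposited table. Cacna1f, the calcium channel of photoreceptor and bipolar terminals, fell from a control mean of 1.34 ± 0.381 CPM to 0.753 ± 0.232 (SD, n = 4 each), and the log2 fold change was -0.83 (adjusted p = 0.023 by edgeR). Grik1, a kainate receptor subunit of OFF bipolar cells, rose from a control mean of 0.583 ± 0.109 CPM to 1.26 ± 0.350 (SD, n = 4 each), and the log2 fold change was 1.10 (adjusted p = 0.00417 by edgeR). Nyx, Cacna1f and Grik1 rest on few reads, as Trpm1 does. Their means in the authors' deposited table were 14.2, 28.5 and 23.4 normalised counts, and that of Trpm1 was 16.3. Rgs9bp, the membrane anchor of a G protein regulator, rose from a control mean of 4.24 ± 0.626 CPM to 7.19 ± 0.661 (SD, n = 4 each), and the log2 fold change was 0.76 (adjusted p = 1.86e-05 by edgeR). Other calls of this list also differ from the authors' deposited table, in genes named after their values were seen. Rgs7, which fell here, had an adjusted p of 0.061 there. Gpr179 and Gria2, which did not pass here, had 0.0431 and 0.0287 there.

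Markers of bipolar subtypes split evenly. Of 24 listed, 17 were tested, of which 6 rose and 6 fell, where 29.3% of all tested genes rose and 29.8% fell. Their median log2 fold change was -0.08. The largest rises were those of Car8, a carbonic anhydrase-related protein, from 0.816 ± 0.368 to 3.13 ± 0.656 CPM (SD, n = 4 each), of Syt2, a calcium sensor of synaptic vesicles, from 0.927 ± 0.236 to 2.52 ± 0.336 CPM (SD, n = 4 each), and of Trnp1, a nuclear protein of neural progenitors, from 0.474 ± 0.128 to 0.981 ± 0.224 CPM (SD, n = 4 each). Their log2 fold changes were 1.93, 1.43 and 1.05, with edgeR adjusted p of 4.84e-07, 1.53e-05 and 0.0107. Their means were 50.4, 49.5 and 18.3 normalised counts in the authors' deposited table, so these rises rest on few reads. Among the falls were those of Sorcs3, a sorting receptor, from 5.97 ± 0.347 to 2.53 ± 0.739 CPM (SD, n = 4 each), and of Calb1, the calcium buffer calbindin, from 6.58 ± 1.43 to 3.19 ± 1.15 CPM (SD, n = 4 each). Their log2 fold changes were -1.23 and -1.04, with edgeR adjusted p of 6.17e-07 and 0.000617. None of these 5 genes is made by bipolar cells alone. Scgn and Cabp2, which mark cone bipolar cells, had means of 2.07 and 1.19 normalised counts in the authors' deposited table and were not tested. Erbb4, named after its values were seen, is among the rises counted here but had an adjusted p of 0.163 in that table.

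Markers of other retinal cells moved in the same libraries, in which 59.1% of all tested genes passed, 29.3% higher and 29.8% lower. The shares that passed in the cone, endothelial, pigment cell and microglial lists were below 59.1%. The rod list had 1 gene higher and 9 lower of 12 tested, and its summed level was 150 to 176 CPM in the controls and 110 to 127 CPM in the Ikzf1 libraries. The cone list had 0 higher and 4 lower of 8 (68.2 to 81.3 against 56.6 to 63.4 CPM), and the photoreceptor precursor list, which includes Otx2, 0 higher and 5 lower of 6 (1078 to 1253 against 717 to 831 CPM). The Müller glia list had 1 higher and 7 lower of 11 (2434 to 2769 against 1479 to 1626 CPM). Most of that sum is Vim, a filament protein that progenitors also make, at 1587 ± 107 CPM in controls and 717 ± 56.1 with Ikzf1 (SD, n = 4 each). The progenitor list, which shares Hes1 and Sox2 with the glial list, had 3 higher and 6 lower of 12 (1871 to 1955 against 1674 to 1687 CPM). The amacrine and horizontal cell list had 1 higher and 8 lower of 14 (802 to 885 against 850 to 900 CPM). The gene that rose was Pax6, the largest part of that sum, at 356 ± 6.61 against 444 ± 11.4 CPM (SD, n = 4 each). Pax6 is also in the progenitor list. The ganglion cell list, which includes Isl1, had 5 higher and 4 lower of 9 (397 to 420 against 198 to 216 CPM). The ganglion cell sum is mostly the neurofilament genes Nefl (117 ± 2.93 against 18.8 ± 1.81 CPM) and Nefm (226 ± 7.58 against 94.1 ± 5.20 CPM, SD, n = 4 each), so it fell although more of the list's genes rose. Endothelial and pericyte genes had 0 higher and 3 lower of 6 (404 to 474 against 207 to 247 CPM), a sum that is nearly all Kdr (436 ± 32.9 against 215 ± 18.2 CPM, SD, n = 4 each). Pecam1 was at 3.05 ± 0.517 and 2.90 ± 1.07 CPM (SD, n = 4 each, adjusted p = 0.762 by edgeR). Pigment cell genes had 0 higher and 2 lower of 5 (12.6 to 13.7 against 6.89 to 8.68 CPM, with Rpe65 listed at 0), and microglial genes 0 higher and 1 lower of 4 (3.50 to 4.88 against 3.03 to 4.11 CPM). The genes that carry these sums were chosen for mention after their values were seen. Aqp4, a marker of mature glia, had a mean of 1.27 normalised counts in the authors' deposited table and was not tested. The part of other cells in the changes of the bipolar cell genes was not tested.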

How the data were processed

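RNA-seq of 4 control and 4 Ikzf1 libraries was used. The authors quantified transcripts with Salmon, per the submitters' processing notes. The deposited files give estimated counts and TPM per transcript, with transcript lengths, per the file headers. The authors' deposited table gives, per the file headers, each gene's mean signal as normalised counts, a log2 fold change, a Wald score and p-values, which the labels credit to DESeq2. Coordinates are GRCm38, and versions, options, annotation and strand use in counting were not given in the sources used here. The 4 CUT&RUN peak lists were not used here.

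The transcript files name no genes. A gene was given the run of at most 60 neighbouring transcripts whose normalised mean equals the deposited mean within a relative 5e-09, and fold changes played no part. This joined 16796 (99.9%) of the 16815 genes whose mean reached 5. When the means were moved slightly, 70 (0.416%) still matched. Fold changes of joined counts divided by transcript length were compared with the authors' deposited table. Over the 11896 genes whose mean reached 100, r was 0.998 across genes, which are not independent replicates. The edgeR fold changes given above used counts not divided by length, and this r does not cover them.

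Estimated counts were rounded, filtered (filterByExpr), scaled by TMM and tested, two-sided and with no covariate, with edgeR 4.0.16 (robust quasi-likelihood) in R 4.3.3 over 21.4 to 30.5 M read pairs a library. The SE is the absolute log2 fold change over the square root of F. The scripts were tested on simulated data. Alternatives used DESeq2 1.42.0, limma 3.58.1 on log2(TPM + 0.1), other scalings, no filter, a replicate block and each library left out. The genes and lists were chosen with earlier results of these data known. Named by rule were the 8 genes, Ikzf1, Otx2, Isl1, Grm6 and, of each other bipolar list, the 3 largest rises and 3 largest falls that passed. Some genes of these lists enter the counts and medians but are not reported here. Promoter sequences are RefSeq's (6 of 8 genes matched, all but Irx5 and Irx6).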

Additional observations from a re-analysis of the deposited data

How the results depend on the processing

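Under 15 alternatives for each of 13 results, 190 of 195 values kept their direction and their side of the threshold, with counts of passing genes within 1.5 times. The exceptions were Lhx4 with limma on log2 TPM (-0.33, adjusted p = 0.0743) and Trpm1, which passed under none: 0.03 with library totals taken without Ikzf1, and 0.19, 0.02 and 0.24 without control replicate 3, Ikzf1 replicate 2 and Ikzf1 replicate 3, within a range of -0.41 to 0.24 when each library was left out. The cause was not tested. Of the 8 genes, 5 to 6 passed. The log2 fold changes ran from 0.49 to 0.69 for Prkca, 0.33 to 0.53 for Fezf2, -0.54 to -0.42 for Irx5, -1.02 to -0.74 for Irx6, -0.84 to -0.55 for Cabp5 and -0.77 to -0.31 for Pcp2, which passed under none. All genes past the threshold numbered 7881 to 9433. With the replicate number as a block, 6 of the 8 genes and 8914 of all genes passed. Deviations from the group mean had r of -0.129, -0.0107, 0.0875 and 0.0951 between same-numbered libraries, over 11893 genes. The labels do not say whether the numbers pair the samples, and these small r cannot decide it. Depth limits Pcp2 and Trpm1 most, at 11 to 33 and 6 to 24 reads a library.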
